A study of Mus musculus with 9 samples.

Results

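The iron- and oxygen-dependent dioxygenases are enzymes that spend 1 molecule of oxygen and 1 of 2-oxoglutarate in each reaction cycle and hold a ferrous iron ion in their active site. The members described here were taken by gene symbol: the JmjC histone demethylases, the Tet proteins, the AlkB family with Fto, the hydroxylases of the hypoxia-inducible factors (HIF), the prolyl and lysyl hydroxylases of collagen, and the JmjC and Ogfod oxygenases of ribosomes and other proteins. They came to 54 of the 27998 genes in the deposited single-cell matrix. Of the 54, 2 were found under an older symbol (Riox1 and Riox2).

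The series studies iron chelation in a mouse model of ovarian cancer grown from ID8-Def29/Vegf cells, a line derived from mouse ovarian surface epithelium and made to carry defensin 29 and Vegf. It holds 9 samples. In 1 of them, single-cell RNA was measured in cells taken from ascites, the tumour-bearing fluid of the peritoneal cavity, of a host of genotype B6_WT. The labels of that sample name no treatment and do not say how many animals gave the fluid. The other 8 are bulk samples of the line in culture, 4 of them with vehicle and 4 with the iron chelator deferiprone for 12 h. They are not analysed here, because the column names of their table match no sample label. The values below thus describe 1 library for which no treatment is named, and say nothing of the response to deferiprone. With a single library there is no replicate and no test. Intervals are exact 95% intervals and cover counting error only.

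The enzymes of this family need iron, oxygen and 2-oxoglutarate at once, and the family is known as a set of sensors that join metal, oxygen and mitochondrial supply to gene regulation and matrix assembly. The Egln enzymes mark HIF alpha subunits for destruction while oxygen and iron suffice, and Hif1an blocks the activity of those that remain. The JmjC and Tet enzymes remove methyl marks from histones and DNA, the AlkB enzymes remove alkyl groups from RNA and DNA, and the P4ha, P3h and Plod enzymes modify proline and lysine of collagen chains in the endoplasmic reticulum. Iron chelators are known to slow these reactions by taking the metal away.

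The matrix held 35733776 unique molecular identifiers (UMIs, each counting 1 captured RNA molecule) in 737280 barcodes, of which 7435 had at least 500. Among these, 3976 barcodes were tumour-like, with a sum of at least 3 UMIs of Krt8, Krt18, Krt19, Wt1 and Upk3b, and 1108 were macrophages, with a sum of at least 3 UMIs of C1qa, C1qb and C1qc. A further 71 met both sums and were left out of both classes. The median depth was 4820.5 UMIs per tumour-like barcode and 1652.0 per macrophage. The tumour-like class summed to 20757957 UMIs and the macrophages to 1976839, so intervals in macrophages are wider.

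Genes outside the rule bore on the class names as follows. Csf1r, the receptor that macrophages depend on, stood at 372 CPM (the gene's count scaled to the total UMIs of its class) in macrophages and 1.40 in tumour-like barcodes, and the leukocyte gene Ptprc at 62.2 and 0.963. In the tumour-like class Krt7 stood at 24.1 CPM, Msln at 10.8 and Muc16 at 5.11, while Epcam had 24 UMIs and Cdh1 none. Krt19, Wt1 and Upk3b are also genes of the mesothelium that lines the cavity, and whether some of these barcodes are mesothelial cells was not tested. Free RNA, which enters droplets from broken cells, was estimated at 5.95% of macrophage UMIs and 8.39% of tumour-like UMIs from barcodes with 1 to 50 UMIs, and at 11.3% and 13.4% from those with 100 to 200.

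The members together made up 1037 CPM (1023 to 1051) of tumour-like RNA and 762 CPM (724 to 802) of macrophage RNA. Neither sum is centred on the median gene, which itself stood 1.44-fold higher in tumour-like cells. Of the 54, 53 had at least 1 UMI and 50 had at least 30 over both classes. Tet1 had 23 UMIs, Kdm4d and P4htm had 11 each and Kdm5d had 0, all in tumour-like cells, and these 4 are given no ratio. Of the 50, 20 were at least 2-fold higher in tumour-like cells, 4 were at least 2-fold higher in macrophages and 26 were called in neither direction. Among all 11356 genes with 30 UMIs, 34.8% were at least 2-fold higher in tumour-like cells and 12.5% in macrophages, so the members' shares of 40.0% and 8.0% were near the background. The minimum of 30 UMIs is summed over classes of unlike size. A gene seen only in tumour-like cells thus passes it at a lower CPM than one seen only in macrophages. P4ha3 and P3h2, with no UMI in macrophages, passed through the tumour-like side alone. This limit holds for the members and for all genes alike. The median log2 ratio of the members was 0.69 and that of all genes 0.53.

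The general shift of 0.53 towards tumour-like cells is a 1.44-fold difference of the median gene. Once ratios were centred on that gene, 9 members stood at least 2-fold towards tumour-like cells and 7 towards macrophages, against 23.3% and 19.6% of all genes. The 9 were Plod2, P3h1, P3h4, P4ha3, Hif1an, Kdm5b, Alkbh2, Alkbh8 and Jmjd8. The 7 were Plod1, Plod3, P4ha1, Kdm7a, Jmjd1c, Kdm6a and Asph. The direction of a member whose uncentred ratio lies between 1 and 1.44 thus turns with this scaling. When barcodes with both marker sums were kept, Alkbh4, Egln3, Fto, Kdm4c, Kdm5a and Plod3 were under 2-fold. Without centring, the interval of the ratio lay clear of 1 for 29 members, 22 towards tumour-like cells and 7 towards macrophages. The same share was not counted over all genes, whose median ratio was itself 1.44 towards tumour-like cells. This tilt is therefore not read as a trait of the members.

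**Figure D1:**
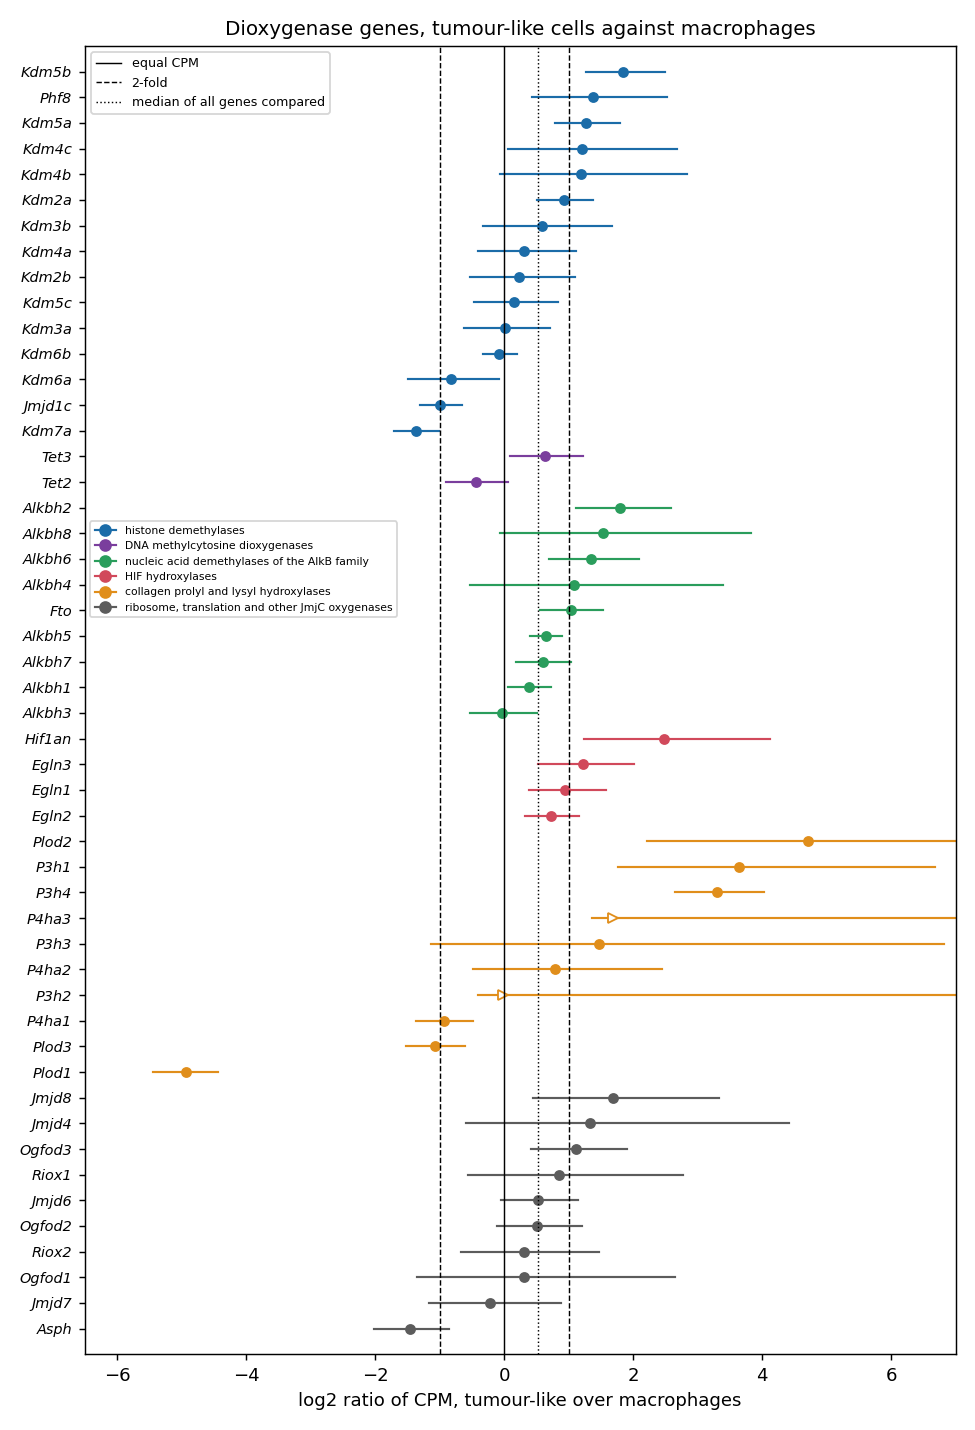
Log2 ratio of CPM, tumour-like cells over macrophages, for the 50 members with at least 30 UMIs, coloured by role; points are ratios, lines exact 95% counting intervals (cut off at the axis limit), and open triangles lower bounds for genes with no UMI in macrophages. Plod1 stands alone on the left at -4.92, and Plod2, P3h1 and P3h4 lie farthest to the right at 4.71, 3.64 and 3.30.

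The enzymes of collagen were the role in which the members spread most widely. All 10 had at least 30 UMIs; 5 were at least 2-fold higher in tumour-like cells (Plod2, P3h1, P3h4, P3h3 and P4ha3), 2 in macrophages (Plod1 and Plod3), P4ha1 and P4ha2 lay within 2-fold, and P3h2, with no UMI in macrophages, was not called. Over all genes the shares were the 34.8% and 12.5% given above, and P3h3 rests on 1 macrophage UMI. The 3 lysyl hydroxylases fell on opposite sides: Plod1 was 30.4-fold higher in macrophages and Plod2 was 26.1-fold higher in tumour-like cells, with ranges over the alternatives of 23.4 to 43.7 and 7.84 to 47.2. The promoters of 4 members on which the results turn, Plod1, the prolyl hydroxylases P4ha1 and P4ha2, and the HIF hydroxylase Egln3, are given first, since P4ha2 and Egln3 are the members discussed below with the HIF target genes. They run 5′ to 3′ on the gene's strand, from 250 bases before to 50 after its start, from RefSeq on GRCm38.p6: Plod1 at chr4:147936727-147937026 (minus strand), P4ha1 at chr10:59323046-59323345 (plus), P4ha2 at chr11:54100674-54100973 (plus) and Egln3 at chr12:54203825-54204124 (minus). Capitals mark ACGTG, a core of the HIF binding site, or CACGT, the same letters read on the other strand.
Plod1: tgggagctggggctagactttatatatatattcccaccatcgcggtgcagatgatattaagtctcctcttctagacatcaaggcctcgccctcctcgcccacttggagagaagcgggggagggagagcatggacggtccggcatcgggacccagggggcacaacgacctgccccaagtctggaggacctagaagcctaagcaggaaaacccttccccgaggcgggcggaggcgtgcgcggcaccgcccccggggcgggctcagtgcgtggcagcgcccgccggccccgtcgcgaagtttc
P4ha1: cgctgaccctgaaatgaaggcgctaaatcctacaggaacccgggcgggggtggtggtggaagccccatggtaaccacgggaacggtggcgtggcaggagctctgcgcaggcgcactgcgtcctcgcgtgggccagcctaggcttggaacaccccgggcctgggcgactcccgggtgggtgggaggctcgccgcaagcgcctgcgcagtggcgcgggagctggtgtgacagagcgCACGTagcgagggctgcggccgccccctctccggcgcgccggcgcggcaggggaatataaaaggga
P4ha2: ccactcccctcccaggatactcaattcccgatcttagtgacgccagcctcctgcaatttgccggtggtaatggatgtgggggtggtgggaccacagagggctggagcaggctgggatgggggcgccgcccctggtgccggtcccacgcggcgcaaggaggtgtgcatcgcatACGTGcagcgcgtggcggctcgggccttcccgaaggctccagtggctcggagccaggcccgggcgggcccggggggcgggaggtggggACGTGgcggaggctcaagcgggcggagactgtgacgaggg
Egln3: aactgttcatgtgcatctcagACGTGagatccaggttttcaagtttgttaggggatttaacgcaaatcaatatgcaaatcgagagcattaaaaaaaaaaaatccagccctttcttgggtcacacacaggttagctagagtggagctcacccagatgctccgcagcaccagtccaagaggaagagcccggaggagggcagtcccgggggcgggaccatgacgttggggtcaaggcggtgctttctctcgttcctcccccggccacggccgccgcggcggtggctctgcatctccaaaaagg

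The P4ha2 window held 2 matches, those of P4ha1 and Egln3 1 each, and that of Plod1 none. Over all members with such a window, 17 of 44 held at least 1 match (38.6%), a share by gene that was not counted over all genes. Counted by window, 17 of 55 did (30.9%), against 6447 of 32851 windows of all genes (19.6%). A match describes letters and not a bound site, and the 4 windows differed in base composition, with 64.3% G and C for Plod1, 70.3% for both P4ha1 and P4ha2 and 54.7% for Egln3.

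Plod1 (ENSMUSG00000019055, chr4:147909753-147936767 on GRCm38) encodes lysyl hydroxylase 1, which acts on lysines in the collagen helix. It had 133 UMIs in macrophages, 67.3 CPM (56.3 to 79.7), and 46 in the far larger tumour-like class, 2.22 CPM (1.62 to 2.96). The ratio was 30.4-fold towards macrophages (21.6 to 43.4). The 13 alternatives changed the cell choice, free RNA, weighting, scaling and count minimum. In barcodes rich in class II antigen-presenting genes and without the marker sums of other types, here called dendritic-like, Plod1 had 4 UMIs, 4.86 CPM (1.32 to 12.4). The macrophage level thus stood above both other classes with no overlap of intervals.

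Plod2 (ENSMUSG00000032374, chr9:92542223-92608428) encodes the lysyl hydroxylase that acts on the ends of collagen chains, the telopeptides, and directs stable cross-links. It had 274 UMIs in tumour-like cells, 13.2 CPM (11.7 to 14.9), and 1 UMI in macrophages, 0.506 CPM. The ratio of 26.1 rests on that single molecule and has an interval of 4.64 to 1034; the lowest value, 7.84, came with barcodes of both marker sums kept. Dendritic-like cells had none of 823861 UMIs, which allows up to 4.48 CPM. Unclassified barcodes had 17 UMIs, 8.87 CPM (5.17 to 14.2), which overlaps the tumour-like interval. The macrophage level of Plod2 lay between the 0.194 and 0.633 CPM that the free RNA estimates would give.

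Plod3 (ENSMUSG00000004846, chr5:136987019-136996648), which also transfers glucose to hydroxylysine, was detected in both classes. It stood at 25.8 CPM (19.2 to 33.9) in macrophages from 51 UMIs and 12.2 CPM in tumour-like cells from 254. The ratio was 2.11-fold towards macrophages (1.53 to 2.86) and fell to 1.99 when barcodes with both marker sums were kept. The gene overlaps Znhit1 on the other strand, and whether the counting used strand is not given in the sources used here.

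Of the 4 genes of the P3h group, P3h1 and P3h4 had intervals clear of 1, both towards tumour-like cells. P3h1 (ENSMUSG00000028641, chr4:119232915-119248975) encodes the enzyme that works in a complex with Crtap and cyclophilin B. It had 261 UMIs in tumour-like cells, 12.6 CPM (11.1 to 14.2), against 2 in macrophages, 1.01 CPM, a ratio of 12.4 (3.41 to 103). With barcodes of both sums kept the ratio of P3h1 was 5.98. With free RNA of barcodes with 1 to 50 UMIs subtracted its log2 ratio was 3.02, against 3.64 as reported. That fall came from the limit of 3 counts, 1.52 CPM, at which its macrophage level was held. The free RNA itself was 0.389 of 1.01 CPM in macrophages and 0.548 of 12.6 in tumour-like cells. P3h4 (ENSMUSG00000006931, chr11:100408456-100414836) encodes a family member known as a scaffold without hydroxylase activity of its own, found in a complex with P3h3 and lysyl hydroxylase 1. P3h4 had 1960 UMIs in tumour-like cells, 94.4 CPM (90.3 to 98.7), against 19 in macrophages, 9.61 CPM (5.79 to 15.01). Its ratio was 9.82 (6.27 to 16.4). Free RNA alone would give 2.91 or 6.23 CPM of P3h4 in macrophages, and with it subtracted from the second profile the ratio was 26.4; with the barcodes of both marker sums kept it was 4.08.

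The remaining P3h genes were sparse. P3h3 had 29 UMIs in tumour-like cells and 1 in macrophages, a ratio of 2.76 whose interval of 0.458 to 113 spans 1. In the alternatives with free RNA subtracted its log2 ratio of 1.47 became -0.08 or -0.21. There its macrophage level, 0.506 CPM, was held at the limit of 3 counts, 1.52 CPM. Free RNA of P3h3 was 0.0 CPM in both classes by barcodes with 1 to 50 UMIs, so the change came from that limit. P3h2 had 31 UMIs in tumour-like cells and 0 in macrophages, where 3 counts over the class, 1.52 CPM, exceed its tumour-like level of 1.49, so no fold is given; with barcodes of both sums kept its log2 ratio was 1.85.

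The prolyl 4-hydroxylase alpha subunits make the hydroxyprolines that hold the collagen helix together at body temperature. P4ha1 (ENSMUSG00000019916, chr10:59323296-59373304) had 52 UMIs in macrophages, 26.3 CPM (19.6 to 34.5), and 286 in tumour-like cells, 13.8 CPM (12.2 to 15.5), which is 1.91-fold towards macrophages (1.39 to 2.57). P4ha2 had 91 UMIs in tumour-like cells, 4.38 CPM, and 5 in macrophages, 2.53 CPM, a ratio of 1.73 with an interval of 0.716 to 5.47. P4ha3 had 102 UMIs in tumour-like cells, 4.91 CPM, and 0 in macrophages, where 3 counts over the class would be 1.52 CPM. With those 3 counts in place of 0 its ratio was 3.24 towards tumour-like cells, and the exact interval starts at 2.59. The family differed by member, with P4ha1 on the macrophage side and P4ha3 on the other.

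**Figure D2:**
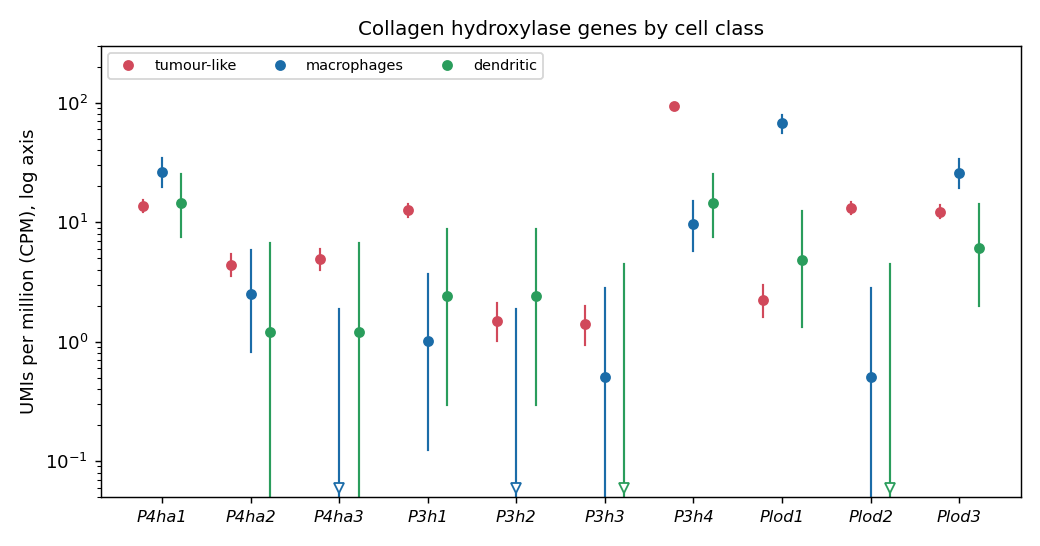
Level of the 10 collagen hydroxylase genes in tumour-like cells, macrophages and dendritic-like cells, as CPM on a log axis; bars are exact Poisson 95% intervals (cut off at the lower axis limit), and open triangles mark genes with no UMI in a class. Plod1 is the gene whose macrophage point (67.3 CPM) lies far above its tumour-like point (2.22 CPM), the reverse of P3h4 (9.61 and 94.4 CPM).

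The genes that work beside these enzymes were read from lists of partners and substrates. Of 7 collagen partners in the matrix, 4 were at least 2-fold higher in tumour-like cells, 1 in macrophages and 2 within 2-fold, with a median log2 ratio of 1.46. Serpinh1, the collagen chaperone of the endoplasmic reticulum, stood at 73.4 CPM in tumour-like cells and 3.03 in macrophages, and Fkbp10, a prolyl isomerase known to assist lysyl hydroxylase 2, at 61.3 and 6.07. Crtap, a partner of P3h1, was 2.75-fold higher in tumour-like cells (1.74 to 4.60), while Ppib, which encodes cyclophilin B, was 1.69-fold higher in macrophages (1.56 to 1.83). Colgalt1, which adds galactose to hydroxylysine, was on the macrophage side, 2.79-fold (2.17 to 3.54), and P4hb, the beta subunit shared by the P4ha enzymes, was within 2-fold at 294 and 211 CPM.

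Of 9 collagen genes with enough UMIs, 8 were at least 2-fold higher in tumour-like cells and none in macrophages, with a median log2 ratio of 2.60. Col4a1 and Col4a2, the chains of basement membrane collagen, stood at 55.5 and 60.9 CPM in tumour-like cells against 1.01 and 2.02 in macrophages. Fibroblast markers were also present in the tumour-like class: Dcn stood at 363 CPM in 2806 of its barcodes, while Col1a1 was found in 24 barcodes and Mgp in 140. Without tumour-like barcodes that held 3 or more UMIs of Col1a1, Col1a2 and Mgp, the log2 ratios were 4.70 for Plod2, 3.65 for P3h1, 3.29 for P3h4 and -4.91 for Plod1. Those values moved by at most 0.01 from the full class. With Dcn added to that sum they were 4.63, 3.62, 3.27 and -5.08.

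Of 4 measured HIF hydroxylases, 2 were past 2-fold towards tumour-like cells, where 34.8% of all genes were, and the other 2 stood at 1.93-fold and 1.65-fold. After centring on the median gene 1 of the 4 was past it, against 23.3% of all genes. As a group they had 104 CPM there and 50.6 in macrophages. Hif1an (ENSMUSG00000036450, chr19:44562850-44576274), the asparaginyl hydroxylase that blocks the binding of coactivators to HIF, had 294 UMIs in tumour-like cells, 14.2 CPM (12.6 to 15.9). It had 5 in macrophages, 2.53 CPM (0.821 to 5.90), a ratio of 5.60 (2.37 to 17.4). Dendritic-like cells lay between at 9.71 CPM (4.19 to 19.1). Hif1an was lowest in macrophages, although its dendritic-like interval overlaps both others.

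The intervals of the 3 prolyl hydroxylases lay above 1, but all of them include the 1.44-fold ratio of the median gene. Egln1, the main oxygen sensor of the group, stood at 25.4 CPM (23.3 to 27.7) and 13.2 (8.59 to 19.3), a ratio of 1.93 (1.31 to 2.99). Egln2 stood at 43.5 and 26.3 CPM, a ratio of 1.65 (1.25 to 2.23). Egln3, itself a known HIF target, stood at 20.1 CPM from 417 UMIs and 8.60 from 17, a ratio of 2.34 (1.44 to 4.05), which was 1.62 after centring on the median gene. Differences between Egln1, Egln2 and Egln3 are not read as differences in amount, since CPM from this assay are not scaled per length or per capture of each gene.

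Among the HIF factors and the subunits of their ligase, 2 of 8 were at least 2-fold higher in tumour-like cells, none in macrophages, and the median log2 ratio was 0.46. Epas1, which encodes HIF-2 alpha, was 6.26-fold higher in tumour-like cells (3.01 to 15.7), with 22.2 and 3.54 CPM. Hif1a was within 2-fold at 28.4 and 35.9 CPM. Of 15 HIF target genes, 3 were at least 2-fold higher in tumour-like cells (Ndrg1, Ddit4 and Vegfa), 2 in macrophages (Ankrd37 and Pfkfb3) and 10 within 2-fold, with a median of -0.35. Among all genes, 34.8% were past 2-fold towards tumour-like cells and 12.5% towards macrophages, with a median of 0.53. Whether the levels of the targets bear on the hydroxylases was not tested.

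The histone demethylases mostly lay within 2-fold: of 15 with enough UMIs, 5 were at least 2-fold higher in tumour-like cells (Kdm5b, Kdm5a, Phf8, Kdm4c and Kdm4b), 1 in macrophages (Kdm7a) and 9 neither. Their median log2 ratio was 0.31, and over all genes the shares past 2-fold were 34.8% and 12.5%. After centring on the median gene 1 of the 15 was past it towards tumour-like cells and 3 towards macrophages, against 23.3% and 19.6% of all genes. The Kdm5 enzymes erase methyl groups from lysine 4 of histone H3, a mark of active promoters. Kdm5b (ENSMUSG00000042207, chr1:134560171-134635285) had 908 UMIs in tumour-like cells, 43.7 CPM (40.9 to 46.7), and 24 in macrophages, 12.1 CPM (7.78 to 18.1), a ratio of 3.60 (2.41 to 5.65), which was 2.14 with barcodes of both marker sums kept. Kdm5a stood at 43.9 and 18.2 CPM, a ratio of 2.41 (1.73 to 3.46), whereas Kdm5c, from the X chromosome, stood at 12.9 and 11.6 CPM, a ratio of 1.11 (0.724 to 1.78). The differences between these 3 ratios were not tested.

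Kdm4c and Kdm4b, which erase methyl groups from lysine 9 of histone H3, had ratios of 2.32 (1.04 to 6.42) and 2.29 (0.953 to 7.17), from 6 and 5 UMIs in macrophages, and Kdm4a had 1.24 (0.759 to 2.17). The 3 intervals overlap. Phf8 stood at 11.9 and 4.55 CPM, a ratio of 2.61 (1.35 to 5.78). Its close relative Kdm7a (ENSMUSG00000042599, chr6:39136623-39206789) went the other way, with 87 UMIs and 44.0 CPM (35.2 to 54.3) in macrophages against 355 and 17.1 CPM (15.4 to 19.0) in tumour-like cells. Kdm7a was 2.57-fold higher in macrophages (2.01 to 3.26) and stood at 46.1 CPM (32.6 to 63.3) in dendritic-like cells.

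Jmjd1c, a relative of the Kdm3 enzymes, followed Kdm7a, with 48.1 CPM in macrophages, 49.8 in dendritic-like cells and 24.2 in tumour-like cells, a ratio of 1.99 towards macrophages (1.58 to 2.48). Both genes stood at like levels in the 2 immune classes. The Kdm6 enzymes remove methyl groups from lysine 27 of histone H3, a mark of silenced genes. Kdm6a was 1.76-fold higher in macrophages (1.05 to 2.82). Kdm6b, known to be induced when macrophages are activated, had 1330 UMIs in tumour-like cells and 133 in macrophages, 64.1 CPM (60.7 to 67.6) and 67.3 CPM (56.3 to 79.7), a ratio of 0.952 (0.796 to 1.15). In dendritic-like cells Kdm6b stood at 146 CPM (121 to 174), above both other classes with no overlap of intervals. The gene overlaps Kdm6bos on the other strand, and whether the counting used strand is not given in the sources used here.

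**Figure D3:**
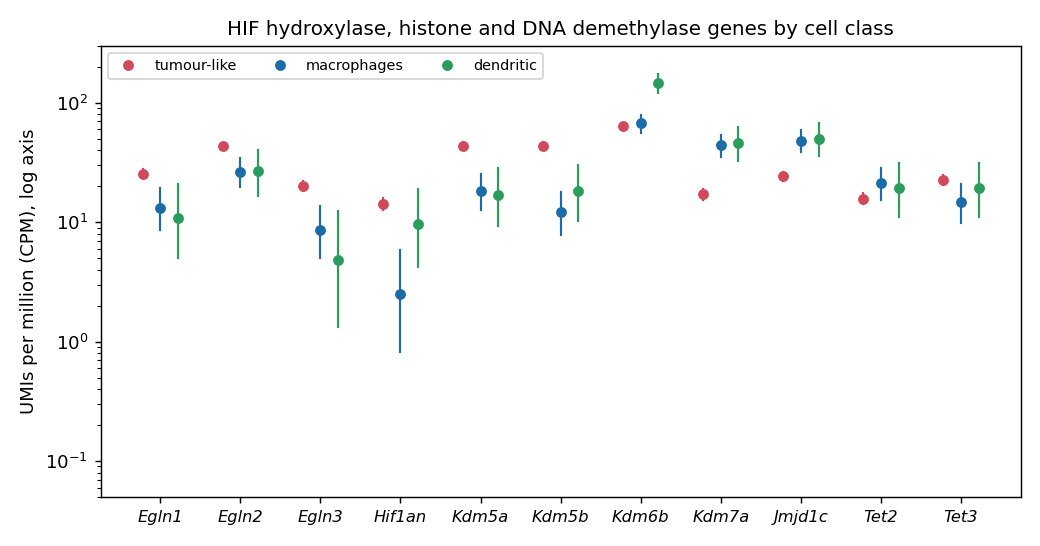
Level of 4 HIF hydroxylase, 5 histone demethylase and 2 Tet genes in tumour-like cells, macrophages and dendritic-like cells, as CPM on a log axis with exact Poisson 95% intervals. Kdm5b lies at 43.7 CPM in tumour-like cells and 12.1 in macrophages, Kdm7a at 17.1 and 44.0, and Kdm6b is highest in dendritic-like cells at 146.

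The Tet proteins oxidise methylcytosine as a step in the removal of DNA methylation. Tet2 stood at 15.8 CPM in tumour-like cells and 21.2 in macrophages, a ratio of 0.741 (0.537 to 1.05). Tet3 stood at 22.7 and 14.7 CPM, a ratio of 1.55 (1.06 to 2.34). Neither was past 2-fold, and the 23 UMIs of Tet1, 1.11 CPM, were all from tumour-like cells, where 0 in macrophages allows up to 1.87 CPM. No difference in Tet1 was thus detectable at this depth.

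Of the 9 genes of the AlkB family with Fto, 5 were past 2-fold towards tumour-like cells (Alkbh2, Alkbh8, Alkbh6, Alkbh4 and Fto), where 34.8% of all genes were, and none towards macrophages, with a median log2 ratio of 1.03. After centring on the median gene 2 of the 9 were past it, against 23.3% of all genes. Their summed level was 325 CPM and 197 CPM. Alkbh5, which removes the N6-methyl group from adenine in messenger RNA, had 2406 UMIs in tumour-like cells, 116 CPM (111 to 121), and 146 in macrophages, 73.9 CPM (62.4 to 86.9). It was within 2-fold, at 1.57 (1.33 to 1.87), and stood at 48.6 CPM in dendritic-like cells. Fto, the other eraser of that mark, stood at 39.3 and 19.2 CPM, a ratio of 2.04 (1.48 to 2.91) that fell under 2 when barcodes with both sums were kept.

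Alkbh2, which repairs alkylated bases in double-stranded DNA, stood at 30.01 CPM from 623 UMIs in tumour-like cells and 8.60 from 17 in macrophages, a ratio of 3.49 (2.16 to 6.03). Alkbh6 had a ratio of 2.56 (1.62 to 4.28). Alkbh8, a modifier of transfer RNA, and Alkbh4 each had 3 UMIs in macrophages, and their ratios of 2.89 (0.958 to 14.3) and 2.13 (0.697 to 10.6) have intervals that span 1. Alkbh1 stood at 52.3 and 40.0 CPM, and Alkbh3, a repair enzyme for single-stranded nucleic acid, at 17.3 and 17.7. Alkbh7, a mitochondrial member, had a ratio of 1.52 (1.14 to 2.06). The DNA repair enzymes Alkbh2 and Alkbh3 therefore differed, the first leaning to tumour-like cells and the second at near equal levels.

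Alkbh1, singled out here after its values were seen, was also low in barcodes with 100 to 200 UMIs in a way few genes were. It stood at 52.0 CPM in all barcodes with 500 or more UMIs and at 2.43 CPM in barcodes with 100 to 200, a ratio of 0.0467. The median of that ratio was 0.556 over the members and 0.702 over all genes, and 0.0793% of all genes had a lower one. In barcodes with 1 to 50 UMIs Alkbh1 stood at 39.2 CPM. The gene overlaps Slirp on the other strand.

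The last group holds oxygenases of ribosomes, translation factors and other proteins. Of 10 members, 3 were at least 2-fold higher in tumour-like cells (Jmjd8, Jmjd4 and Ogfod3), 1 in macrophages (Asph) and 6 neither. Over all genes the shares past 2-fold were 34.8% and 12.5%. The median log2 ratio of the group was 0.52, next to the 0.53 of all genes. Asph, which hydroxylates aspartate and asparagine in domains of the epidermal growth factor type, had 33 UMIs in macrophages, 16.7 CPM (11.5 to 23.4), and 126 in tumour-like cells, 6.07 CPM (5.06 to 7.23). Its ratio was 2.75-fold towards macrophages (1.82 to 4.06). Jmjd8, a protein of the endoplasmic reticulum, had 170 UMIs and 8.19 CPM in tumour-like cells against 5 and 2.53 CPM in macrophages, a ratio of 3.24 (1.36 to 10.1).

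Jmjd6, an arginine and lysine oxygenase, was near equal at 19.6 and 13.7 CPM, as were the ribosomal oxygenase Riox2, with 5.64 and 4.55 CPM, and Ogfod1, with 1.88 and 1.52. Ogfod3 stood at 18.6 and 8.60 CPM, a ratio of 2.17 (1.34 to 3.76) that fell under 2 when the marker sums had to reach 5. Jmjd4, which hydroxylates a translation release factor, had 2 UMIs in macrophages and a ratio of 2.52 (0.665 to 21.4). Asph and Jmjd8 were thus the members of this group at least 2-fold from the median gene.

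The cosubstrate of these enzymes is made and used by mitochondrial and cytosolic dehydrogenases. Of 16 genes that make or use 2-oxoglutarate, succinate or fumarate, 4 were at least 2-fold higher in tumour-like cells, 2 in macrophages and 10 within 2-fold, with a median log2 ratio of 0.24. Of 5 isocitrate dehydrogenase genes, Idh3a, Idh3b and Idh3g, the subunits of the mitochondrial enzyme that uses NAD, lay within 2-fold, at ratios of 1.27, 1.11 and 1.097. Idh2, a mitochondrial enzyme that uses NADP, stood at 104 CPM in tumour-like cells and 37.9 in macrophages, and Idh1, its cytosolic relative, at 34.7 and 100.2. Ogdh, a subunit of the complex that uses 2-oxoglutarate in the citric acid cycle, stood at 76.1 and 34.4 CPM, a ratio of 2.21 (1.73 to 2.86).

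Among the writers of the marks that these enzymes erase, 3 of 16 were at least 2-fold higher in tumour-like cells (Kmt2d, Uhrf1 and Ezh2) and none in macrophages, with a median of 0.15. Of 6 further genes from families of 2-oxoglutarate oxygenases outside the rule, 1 was at least 2-fold higher in tumour-like cells and none in macrophages, with a median of 0.13. Kdm1a, a histone demethylase that uses flavin in place of iron, stood at 52.5 and 15.7 CPM, a ratio of 3.35 (2.34 to 4.95).

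Within the tumour-like class, 290 barcodes with at least 2 UMIs of the proliferation genes Mki67, Top2a, Birc5, Cenpf and Ube2c were set against the other 3686. Of 49 members compared, none was 2-fold higher in cycling cells and 2 were 2-fold lower, Kdm5b and Kdm7a. Over all 10918 genes the shares were 4.73% higher and 5.18% lower. Kdm5b stood at 20.5 CPM in cycling cells, from 43 UMIs, and 46.4 in the rest, 2.27-fold lower (1.67 to 3.16). Kdm7a stood at 8.09 and 18.1 CPM, 2.24-fold lower (1.38 to 3.89).

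Both genes thus lay under their level in the other tumour-like cells, although they differ in opposite directions between tumour-like cells and macrophages. Kdm6b was lower in cycling cells as well, at 40.9 and 66.7 CPM, a ratio of 0.614 (0.487 to 0.764). Plod2 was the 1 member whose interval lay above 1, with 18.6 and 12.6 CPM, a ratio of 1.47 (1.02 to 2.07). The intervals of 7 members lay below 1, and neither count was made over all genes. Cycling barcodes were deeper, with a median of 7238 UMIs against 4696.5, and the part of depth in these ratios was not tested.

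Within the macrophages, 724 barcodes with at least 5 UMIs of Pf4, Arg1 and Saa3 were set against 384 with fewer. Pf4 encodes a chemokine, Saa3 an acute-phase protein, and Arg1 the arginase known from alternatively activated macrophages. Only 16 members had enough UMIs; 4 were at least 2-fold higher in the first set (Alkbh3, Plod1, P4ha1 and Kdm5a) and 3 lower (Kdm6b, Asph and Kdm7a), where all 4316 genes gave 5.82% and 3.15%. Plod1 stood at 81.8 CPM from 119 UMIs in the first set and 26.8 from 14 in the second, a ratio of 3.05 (1.75 to 5.76). P4ha1 stood at 30.9 and 13.4 CPM, a ratio of 2.31 (1.03 to 6.07). Plod1 and P4ha1, both higher in macrophages than in tumour-like cells, were thus also higher in the Pf4-rich set, while the interval of Plod3, 0.726 to 3.30, spans 1. Alkbh3 had 32 and 3 UMIs, a ratio of 3.83 (1.199 to 19.6).

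Kdm6b ran the other way, with 45.4 CPM in Pf4-rich macrophages and 128 in the others, 2.82-fold lower (1.98 to 4.03). Kdm7a stood at 33.7 and 72.7 CPM, 2.16-fold lower (1.37 to 3.37), and Asph was 2.32-fold lower (1.09 to 4.87). Kdm6b, Kdm7a and Alkbh1, which stood at 31.6 and 63.1 CPM, were all higher in macrophages poor in Pf4, Arg1 and Saa3. With the sum set at 10, which makes 562 and 546 barcodes, 1 member was 2-fold higher (Kdm5a) and 3 lower (Kdm6b, Asph and Tet2), and Plod1 had a ratio of 1.85 (1.24 to 2.82), P4ha1 1.72 (0.913 to 3.45) and Alkbh3 1.22 (0.582 to 2.69). The interval of Kdm5a spans 1 with either sum, 0.859 to 7.34 and 0.987 to 5.65. Kdm7a was then 1.85-fold lower, and Tet2 2.31-fold (1.201 to 4.57). Pf4-rich barcodes had a median of 1888 UMIs and the others 1326.5, and the part of depth was not tested.

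Within the tumour-like class, barcodes were also ranked by the share of their UMIs from 16 HIF target genes, and the 995 with the highest share (at least 0.373%) were set against the 994 with the lowest (at most 0.214%). This is a range and not a type, since 677 barcodes lie within 10% of the upper limit and 517 within 10% of the lower. Of the 3077 CPM of the list in tumour-like cells, Mif gave 1276 and Aldoa 818, so these genes weigh most in the ranking. The median depth was 4822 UMIs in the first set and 4137.5 in the second, and its part was not tested. Of 44 members compared, 2 were 2-fold higher in the target-rich set (P4ha2 and Jmjd7) and none lower, against 1.28% and 0.618% of 9544 genes. P4ha2 stood at 7.76 CPM from 40 UMIs and 2.74 from 12, a ratio of 2.83 (1.46 to 5.93). Jmjd7 stood at 5.82 and 2.28 CPM, a ratio of 2.55 (1.21 to 5.84), but shares its locus with Gm28042 on the same strand.

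Egln3 stood at 23.9 and 15.3 CPM, a ratio of 1.56 (1.15 to 2.13), and P4ha1, also known as a HIF target, had 1.32 (0.927 to 1.90). Members known as HIF targets, set side by side after their values were seen, did not all share this direction. Plod2 had a ratio of 0.965 (0.684 to 1.36) and Kdm3a, a further known target, 0.999 (0.676 to 1.48). Egln1 stood at 26.0 and 25.4 CPM. With the cells split at the median, P4ha2 had a ratio of 2.32 (1.45 to 3.82), Egln3 1.36 (1.12 to 1.67) and Jmjd7 1.39 (0.898 to 2.19).

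**Figure D4:**
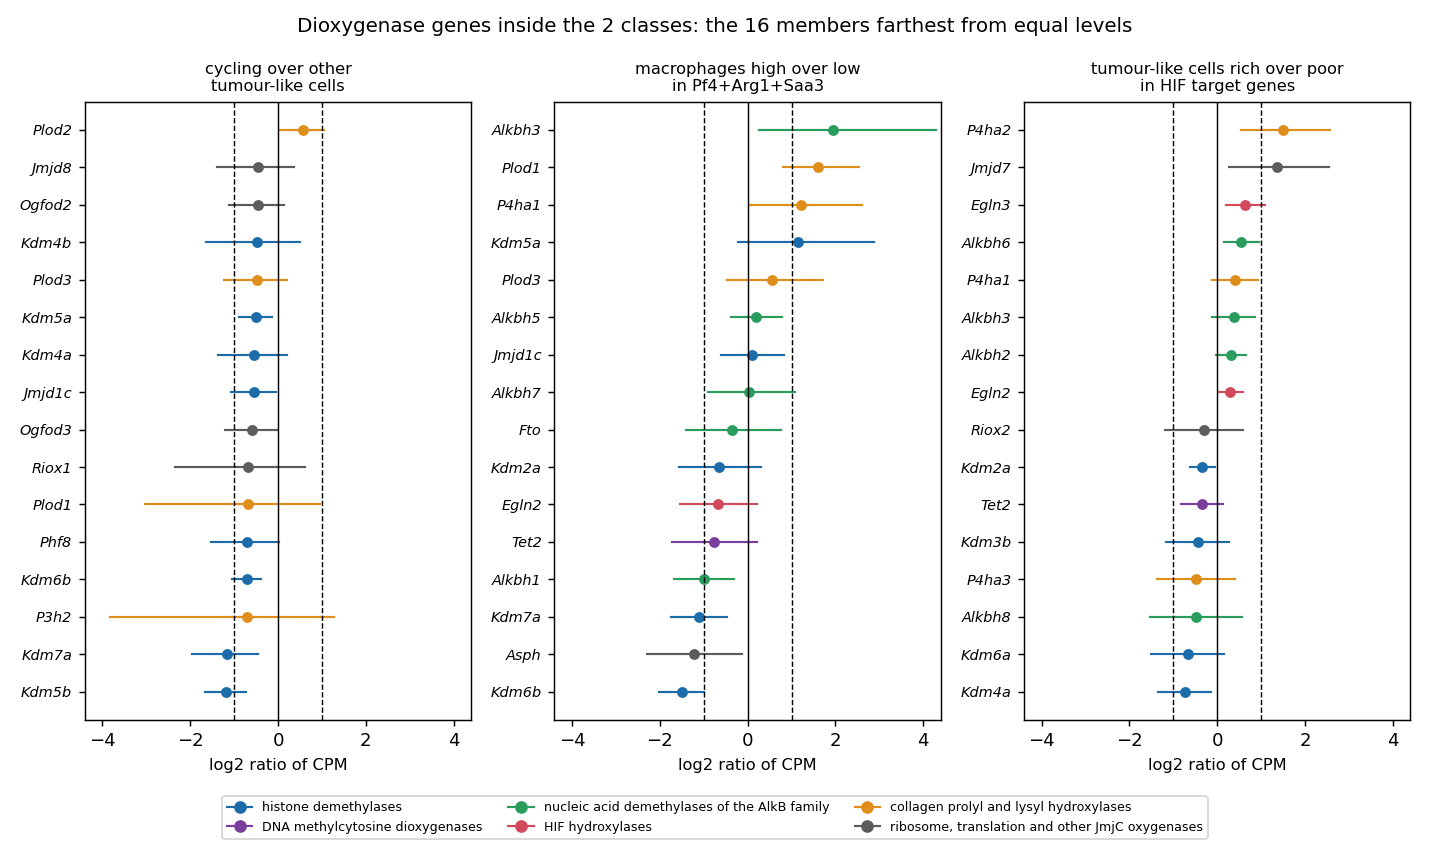
Log2 ratio of CPM inside a class for the 16 members farthest from equal levels in each comparison (left, cycling over other tumour-like cells; middle, macrophages high over low in Pf4, Arg1 and Saa3; right, tumour-like cells rich over poor in HIF target genes), coloured by role, with exact 95% counting intervals. Kdm6b lies far to the left among macrophages (45.4 against 128 CPM) and P4ha2 far to the right among HIF-target-rich cells (7.76 against 2.74 CPM).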

How the data were processed

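Single-cell RNA was measured in 1 ascites library by a 10x Genomics assay, per the labels. The matrix deposited by the authors holds UMI counts per gene and barcode, with no selection of cells. Its aligner and genome build were not given in the sources used here. The authors' deposited bulk counts have 8 columns whose names match no sample label, so they were not used and the planned edgeR comparison was not run.

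UMIs were summed per class and given as CPM with exact Poisson intervals, and ratios with exact conditional binomial intervals, at 95%. A member was called at 2-fold or more, among genes with at least 30 UMIs over both classes. For a count of 0, 3 counts over the class were put in its place as a limit. In the free RNA alternatives macrophage levels under 3 counts were held at that limit. All members with 30 UMIs may be named. Depth per barcode ranged from 518 to 19486 UMIs in tumour-like cells and 500 to 5459 in macrophages. Free RNA was estimated from genes with at least 100 CPM in 1 class and 20-fold less in the other. Scrublet (scanpy 1.11.5) marked 89 of 7435 barcodes (1.2%) as doublets, left out in 1 alternative. Gene positions are from GENCODE M21 on GRCm38, matched by identifier for 27645 of 27998 genes, and promoters from RefSeq. By these positions further called members, among them Alkbh2, Jmjd4, Jmjd8 and Ogfod3, also overlap a gene on the other strand. Tools were Python 3.11.15, numpy 2.4.6, scipy 1.17.1 and pandas 2.3.3, and the ratio scripts were tested on simulated data. The members, gene lists and cell classes were chosen with earlier results of these data known, and the comparison by HIF target genes was added after the data were seen. Alternatives changed the cell choice, marker sums, free RNA, scaling and count minimum. The values of 1 gene of the lists are not reported here.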

Additional observations from a re-analysis of the deposited data

Results flagged for a closer look

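Members were also counted in barcodes that the main comparisons left out. The 1576 barcodes with at least 500 UMIs and none of the marker sums held 1554 member UMIs, 811 CPM (771 to 852), with hemoglobin genes at 23.9% of all their UMIs. The 71 barcodes that met both the tumour-like and the macrophage sum held 448 member UMIs, 1084 CPM (986 to 1189). They are given as values because the main comparisons left out these barcodes. The 71 entered the alternative that kept them in both classes, and the unclassified barcodes were read for Plod2 above.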

How the results depend on the processing

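Over 13 alternatives for the comparison of tumour-like cells with macrophages, the number of members at least 2-fold higher in tumour-like cells lay between 16 and 21 and in macrophages between 3 and 5, apart from centring on the median gene, which gave 9 and 7. Of 636 recomputed member ratios, 614 lay inside the interval of the reported ratio, 20 lay outside it and 2 changed sign. Both sign changes were those of P3h3, in the alternatives with free RNA subtracted. Its log2 ratio was -0.0814 with barcodes of 1 to 50 UMIs and -0.21 with those of 100 to 200. It had 1 macrophage UMI, and both values arose because its macrophage level was held at the limit of 3 counts. With a sum of 10 for Pf4, Arg1 and Saa3, 1 member in place of 4 was 2-fold higher, and with the cells split at the median HIF target share, 1 in place of 2. The cause of these changes was not tested. The cycling comparison gave 0 higher and 3 lower with a sum of 4. No paired analysis was possible because the single-cell data are 1 library and the bulk columns carry no sample label or replicate number. For the same reason the 4 alternatives planned for the bulk comparison were not run. Macrophage depth limits members at a few UMIs: 3 counts there are 1.52 CPM, against 0.145 CPM in tumour-like cells.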

Other observations

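Small classes outside the comparisons held few member UMIs. The 94 barcodes with B cell markers had 54 member UMIs, 683 CPM (513 to 891). The 24 with T cell markers had 22, 1035 CPM (649 to 1567). The 11 with fibroblast markers and no tumour-like sum had 30, 1088 CPM (734 to 1553). The dendritic-like class, with 575 barcodes and 676 member UMIs, stood at 821 CPM (760 to 885), near the macrophage level and under the tumour-like one. The sums of these classes were not centred on the median gene.

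In dendritic-like cells Alkbh1 stood at 83.8 CPM (65.2 to 106), against 52.3 (49.2 to 55.5) in tumour-like cells and 40.0 (31.6 to 49.8) in macrophages. The dendritic-like interval lay above both others, which overlap each other. Plod3 stood at 6.07 CPM (1.97 to 14.2) from 5 UMIs, under the macrophage level of 25.8 (19.2 to 33.9) and with an interval that overlaps the tumour-like one (10.8 to 13.8).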
